A study of Mus musculus with 6 samples.

Results

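The 8 genes described here encode the transcription factors that commit intestinal progenitors to the enteroendocrine lineage and carry the committed cells to hormone production: Neurog3, Neurod1, Nkx2-2, Insm1, Pax4, Pax6, Isl1 and Rfx6. Each is read from the probe set that the platform annotation pairs with that gene symbol alone. Each of the 8 has 1 such probe set, among 22180 genes that have at least 1. Of the 8, 6 were bright enough to be tested, and Neurod1 and Pax6 were not. The signals come from duodenum of 10-week-old mice, 3 VDR-null mice, labelled as lacking the vitamin D receptor (the nuclear receptor for the hormone calcitriol), and 3 wild-type mice. Each mouse has 1 Affymetrix Mouse Gene 2.0 ST array, and both genotypes are on the C57Bl/6 strain background. The labels do not state the targeted allele, the sex or the diet of the mice. A p-value here sets the difference between the genotypes against the spread among the 3 mice of each. The limma method first draws that spread, gene by gene, toward the spread typical of all genes fitted. Each SE and confidence interval of a difference uses the spread so adjusted.

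Enteroendocrine cells are rare hormone-secreting cells scattered through the intestinal epithelium. In the mouse they arise from crypt progenitors that escape Notch signalling, express Atoh1 and then, for a short time, Neurog3, a basic helix-loop-helix factor without which the intestine forms no enteroendocrine cells. Neurog3 turns on Neurod1, Insm1, Nkx2-2, Pax4 and Rfx6, and the later factors, Pax6 and Isl1 among them, divide the lineage into cells that make different hormones. Basic helix-loop-helix factors bind the short DNA motif called the E-box.

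Printed here are proximal promoters, from the RefSeq promoter table, of members that separated the genotypes below and hold an E-box of the searched kinds. The E-box, a motif through which such factors can act, was thus part of the choice. Its link to the genotype was not tested. Pax6 also separated the genotypes, and its promoters in the table held no such E-box. Neurod1 and Rfx6, which overlapped, held none either. The 250 bases before the gene start are given 5′ to 3′ on the gene's own strand (GRCm38.p6), with the E-box in capitals. They are Neurog3 at chr10:62132840-62133089 on the plus strand, Nkx2-2 at chr2:147186403-147186652 on the minus strand and Isl1 at chr13:116309689-116309938 on the minus strand.
Neurog3: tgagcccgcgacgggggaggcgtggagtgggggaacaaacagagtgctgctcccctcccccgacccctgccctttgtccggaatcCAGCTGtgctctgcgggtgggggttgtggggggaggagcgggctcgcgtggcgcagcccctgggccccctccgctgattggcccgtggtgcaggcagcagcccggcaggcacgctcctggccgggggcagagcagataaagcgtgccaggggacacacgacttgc
Nkx2-2: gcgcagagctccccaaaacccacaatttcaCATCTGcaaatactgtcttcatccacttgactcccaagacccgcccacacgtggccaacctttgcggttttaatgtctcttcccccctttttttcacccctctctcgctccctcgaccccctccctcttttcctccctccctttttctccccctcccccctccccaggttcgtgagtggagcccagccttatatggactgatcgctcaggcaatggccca
Isl1: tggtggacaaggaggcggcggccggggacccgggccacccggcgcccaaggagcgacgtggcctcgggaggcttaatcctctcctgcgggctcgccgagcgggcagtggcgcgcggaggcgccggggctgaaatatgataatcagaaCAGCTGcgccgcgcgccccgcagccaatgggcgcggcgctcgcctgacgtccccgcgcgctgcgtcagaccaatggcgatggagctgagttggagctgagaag
The E-boxes searched were CAGATG and CAGCTG, on both strands, in the 250 bases before and the 50 after each start, and the 2 motifs did not overlap each other here. Neurog3 and Isl1 have CAGCTG, which reads the same on both strands, starting 165 and 103 bases before the gene start. Nkx2-2 has CAGATG on the other strand, read as CATCTG, starting 220 bases before. The table held 7 promoters of 6 members (Pax6 has a pair of them); Insm1 and Pax4 are named only. Of the 7 promoters, 3 had an E-box of either kind, against 30.6% of all 32851 promoters in the table. CAGATG was in 1 of the 7 against 17.2% of all, and CAGCTG in 2 against 16.3%. The nuclear receptor core motifs AGGTCA and AGTTCA, searched on both strands, were in 0 of the 7, against 16.3% and 14% of all promoters. The DR3 element, the form to which the vitamin D receptor binds, was likewise in 0 of the 7, against 0.0396% of all. These are letter matches in a short window, and the absence of a match says nothing about the factor.

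The arrays were even in brightness, with medians between 5.15 and 5.19 on the log2 scale of the signals. Vdr itself read 10.99, 10.86 and 10.85 in VDR-null replicates 1 to 3, against 10.72, 10.95 and 11.11 in wild-type replicates 1 to 3. The groups overlapped, and the difference was -0.03 ± 0.12 (SE) with a limma adjusted p of 0.944. With wild-type replicate 3 left out it was 0.07. The labels do not say where its probes lie relative to the missing part of the gene, so the signal does not check the genotype labels. All 12 duodenal marker genes on the list used, such as the homeobox factor Pdx1, passed the filter on dim signals. Their levels were uneven between the mice, with a mean of 9.72, 9.44 and 9.17 in VDR-null replicates 1 to 3. In wild-type replicates 1 to 3 it was 8.64, 9.33 and 9.47, lowest in replicate 1, and the genotypes overlapped. Of the differences of these genes 10 were positive and 2 negative, with a median of 0.15. Whether the samples were alike in duodenal content was not tested. No gene of the 13174 tested passed an adjusted p of 0.05 (limma, 0 genes, 0%), while 3.03% were lower and 2.2% were higher in VDR-null duodenum at an unadjusted p under 0.05. The members below are therefore described by their values, intervals and unadjusted p, and none of their differences passed the adjusted threshold.

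Neurog3, which starts the endocrine program, was lower in every VDR-null mouse than in any wild-type mouse. Its probe set (17233771, chromosome 10) read 6.34, 6.07 and 6.48 in VDR-null replicates 1 to 3, against 6.62, 6.62 and 7.12 in wild-type replicates 1 to 3. The groups did not overlap: the highest VDR-null array lay 0.14 below the lowest wild-type arrays, and wild-type replicate 3 stood above the other wild-type arrays. The means were 6.30 ± 0.21 in VDR-null and 6.78 ± 0.29 in wild-type duodenum (SD, n = 3 each). On the log2 scale the difference was -0.49 ± 0.17 (SE; 95% confidence interval -0.90 to -0.08), so that the VDR-null signal was 71.3% of the wild-type signal. This was the largest difference among the 8 members, with a limma unadjusted p of 0.0269 and an adjusted p of 0.683. Without wild-type replicate 3 it was -0.32.

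Insm1 encodes a zinc finger factor that acts early after Neurog3 and is needed for endocrine differentiation in the mouse gut. Its probe set (17377253, chromosome 2) read 6.20, 6.08 and 6.18 in VDR-null replicates 1 to 3, against 6.40, 6.49 and 6.36 in wild-type replicates 1 to 3. All 3 VDR-null arrays lay below all 3 wild-type arrays, by at least 0.16, and the spread within each genotype was small. The means were 6.15 ± 0.06 in VDR-null and 6.42 ± 0.07 in wild-type duodenum (SD, n = 3 each). The difference was -0.26 ± 0.09 (SE; 95% confidence interval -0.47 to -0.06), or 83.3% of the wild-type signal, with a limma unadjusted p of 0.0191 and an adjusted p of 0.683.

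Nkx2-2, a homeodomain factor that helps set which hormones the cells make, gave nearly the same picture. Its probe set (17392529, chromosome 2) read 5.94, 6.04 and 5.92 in VDR-null replicates 1 to 3, against 6.21, 6.28 and 6.18 in wild-type replicates 1 to 3. Here too the groups did not overlap, with a gap of 0.15 between them. The means were 5.96 ± 0.06 in VDR-null and 6.23 ± 0.05 in wild-type duodenum (SD, n = 3 each). Nkx2-2 differed by -0.26 ± 0.08 (SE; 95% confidence interval -0.46 to -0.06), or 83.4% of the wild-type signal, with a limma unadjusted p of 0.0174 and an adjusted p of 0.683. Its promoter, printed above, carries the E-box farthest from the gene start of the 3 shown.

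Neurod1, the basic helix-loop-helix factor that follows Neurog3 and is required in the mouse for the cells that make secretin and cholecystokinin, was too dim to be tested. Its probe set (17372351, chromosome 2) read 4.36, 4.39 and 4.33 in VDR-null replicates 1 to 3, against 4.41, 4.31 and 4.49 in wild-type replicates 1 to 3. All 6 arrays lay below the filter level of 5.17, which is the median over the whole table, and the groups overlapped. In a fit with no filter on dim genes the difference was -0.04 ± 0.08 (SE; 95% confidence interval -0.24 to 0.15; limma adjusted p = 0.895). For Rfx6, Neurog3, Pax6 and Nkx2-2, 27 of 27, 33 of 34, 31 of 32 and 32 of 33 of the probe sets nearest in number belong to genes on the member's own strand, and for Isl1 24 of 33 do. For this probe set it was 7 of 36, since 29 belong to genes on the plus strand and Neurod1 is on the minus strand. A second probe set (17387267), which the annotation pairs with Neurod1 and Cerkl together, has 32 of 33 such neighbours on the minus strand, that of Neurod1. It read 6.34, 6.26 and 6.39 in VDR-null replicates 1 to 3, against 6.25, 6.42 and 6.25 in wild-type replicates 1 to 3. The groups overlapped there too, with a difference of 0.02 ± 0.09 (SE; limma unadjusted p = 0.818). The strand that each probe set targets was not stated in the sources, so neither settles the level of Neurod1.

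**Figure D1:**
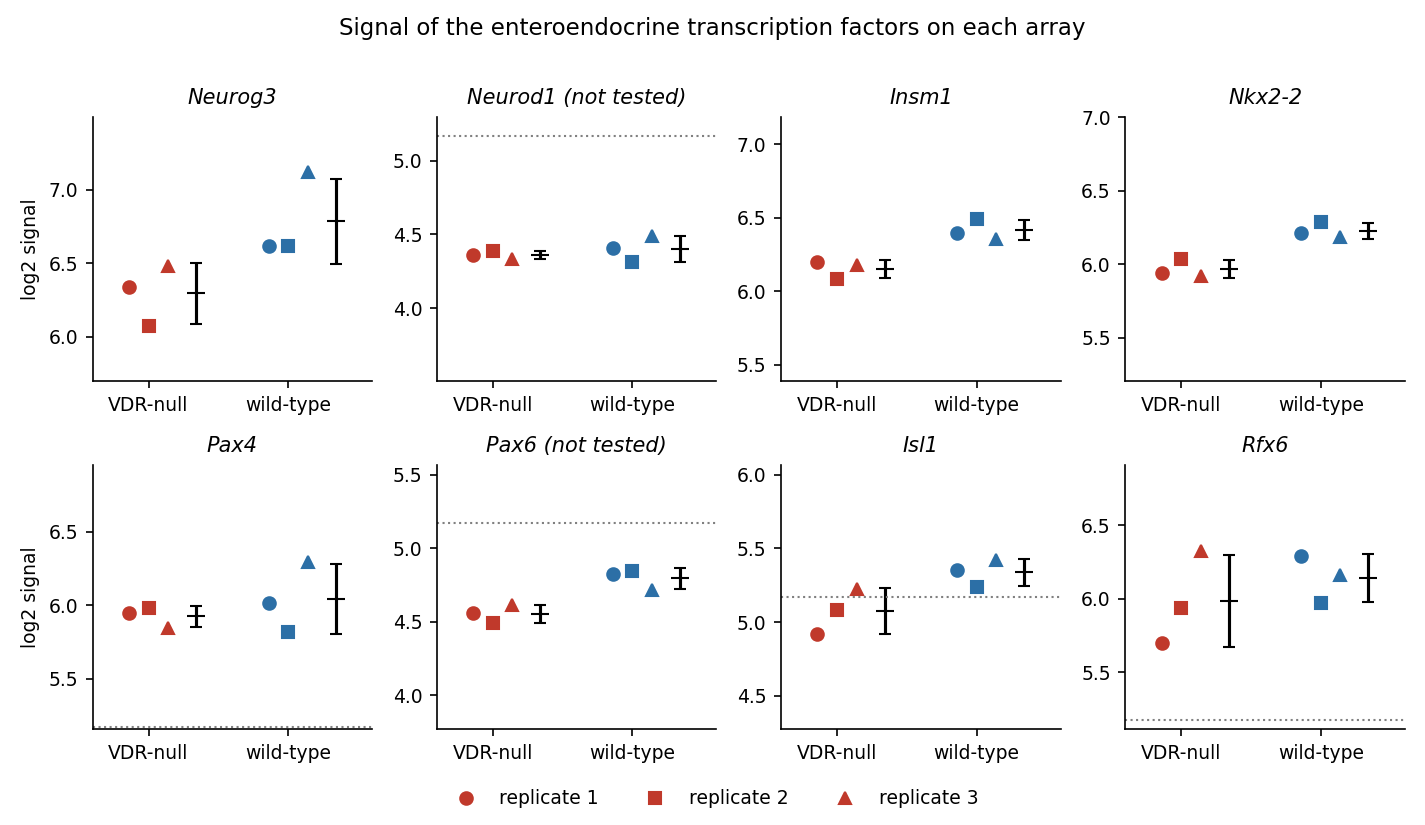
Log2 signal of each of the 8 members on each array, one panel per gene, VDR-null left and wild-type right. Symbols mark replicates 1 to 3, bars the mean ± SD (n = 3 mice), the dotted line the filter level of 5.17. Panels have axes of equal span at different positions. Neurog3, Insm1, Nkx2-2, Isl1 and Pax6 have all VDR-null arrays below all wild-type arrays, and Pax4, Rfx6 and Neurod1 overlap.

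Isl1 encodes a LIM-homeodomain factor of later endocrine cells, needed in the mouse gut for several hormones. Its probe set (17296427, chromosome 13) read 4.92, 5.08 and 5.22 in VDR-null replicates 1 to 3, against 5.35, 5.24 and 5.42 in wild-type replicates 1 to 3. It passed the filter on 4 of 6 arrays: all 3 wild-type arrays and VDR-null replicate 3. Passing through the brighter group favours a difference in that direction, and under a stricter filter Isl1 was not tested. The means were 5.07 ± 0.15 in VDR-null and 5.34 ± 0.09 in wild-type duodenum (SD, n = 3 each), and the groups came within 0.016 of touching. The difference was -0.26 ± 0.11 (SE; 95% confidence interval -0.52 to -0.0030), or 83.3% of the wild-type signal, with a limma unadjusted p of 0.0481 and an adjusted p of 0.683.

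Pax6, a paired-box factor that activates hormone genes in gut and pancreas, was dim on all 6 arrays and was not tested. Its probe set (17373943, chromosome 2) read 4.56, 4.49 and 4.61 in VDR-null replicates 1 to 3, against 4.82, 4.84 and 4.71 in wild-type replicates 1 to 3. The groups did not overlap, with a gap of 0.099. In the fit with no filter the difference was -0.24 ± 0.08 (SE; 95% confidence interval -0.44 to -0.05), with a limma unadjusted p of 0.0219 and an adjusted p of 0.736. A probe set that the annotation gives to Elp4 and Pax6 together (17389051) read 6.37, 7.07 and 6.91 in VDR-null replicates 1 to 3, against 7.24, 6.91 and 6.91 in wild-type replicates 1 to 3. Of its 29 neighbours in number 0 belong to genes on the plus strand, that of Pax6, so it is not taken as a second reading of Pax6. There the groups overlapped, and the arrays numbered 1 gave both the lowest value, in VDR-null, and the highest, in wild-type duodenum. The difference was -0.24 ± 0.20 (SE; limma unadjusted p = 0.276).

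Pax4, the paired-box factor that favours some endocrine cell fates over others, overlapped between the genotypes. Its probe set (17465319, chromosome 6) read 5.95, 5.98 and 5.85 in VDR-null replicates 1 to 3, against 6.02, 5.82 and 6.30 in wild-type replicates 1 to 3. The lowest and the highest of the 6 arrays were both wild-type. The means were 5.93 ± 0.07 in VDR-null and 6.04 ± 0.24 in wild-type duodenum (SD, n = 3 each). The difference was -0.12 ± 0.13 (SE; 95% confidence interval -0.44 to 0.20; limma adjusted p = 0.763). It was 0.01 without wild-type replicate 3 and -0.23 without wild-type replicate 2.

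Rfx6, a winged-helix factor that acts downstream of Neurog3 in mouse pancreas and gut, varied most among the VDR-null mice. Its probe set (17233237, chromosome 10) read 5.70, 5.93 and 6.32 in VDR-null replicates 1 to 3, against 6.29, 5.97 and 6.16 in wild-type replicates 1 to 3. VDR-null replicate 3 was the highest of all arrays and VDR-null replicate 1 the lowest. The means were 5.99 ± 0.32 in VDR-null and 6.14 ± 0.16 in wild-type duodenum (SD, n = 3 each). The difference was -0.15 ± 0.17 (SE; 95% confidence interval -0.57 to 0.26; limma adjusted p = 0.762). Leaving out VDR-null replicate 1 gave -0.01, and leaving out replicate 3 of that genotype gave -0.32. Leaving out wild-type replicate 1 gave -0.08. The intervals of Pax4 and Rfx6 include both 0 and the difference of Insm1.

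**Figure D2:**
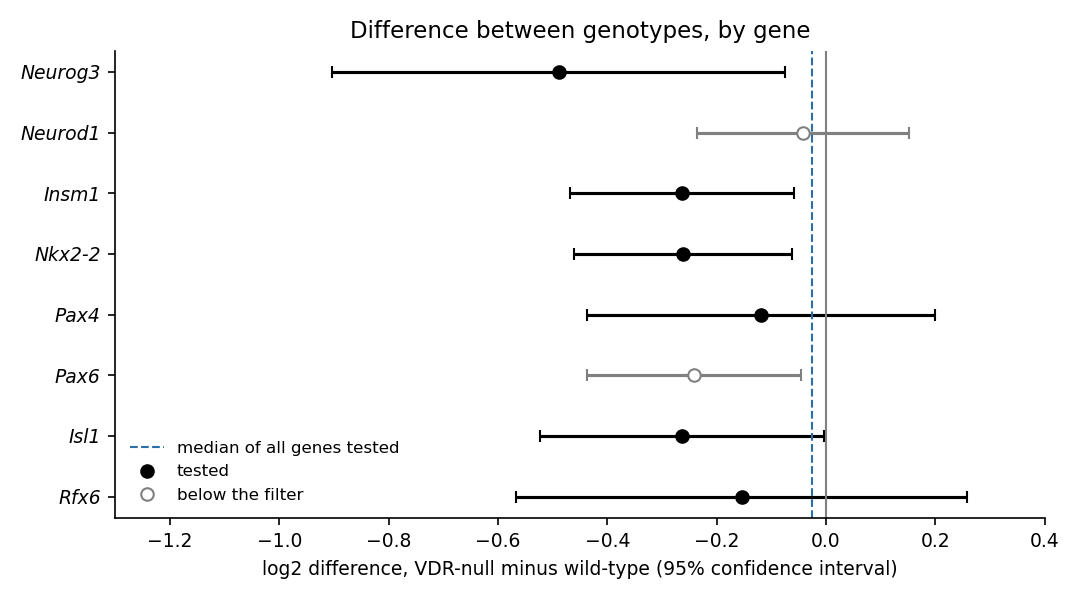
Log2 difference, VDR-null minus wild-type, of each of the 8 members with its 95% confidence interval from limma (n = 3 mice per genotype), Neurod1 and Pax6 (open circles) from the fit with no filter; the dashed line is the median of all genes tested, -0.03. All 8 points lie below 0, from -0.49 for Neurog3 to -0.04 for Neurod1, and the intervals of Pax4, Rfx6 and Neurod1 include 0. The probe set shared by Neurod1 and Cerkl (0.02) is not shown.

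Read from their single-symbol probe sets, the members had differences of the same sign. Of the 6 tested members all 6 were lower in VDR-null duodenum, with a median difference of -0.26 and a range from -0.49 to -0.12. Among all 13174 genes tested, 56.0% were lower and the median was -0.03. All 3 VDR-null arrays lay below all 3 wild-type arrays for 4 of the 6 tested members, against 6.22% of all genes tested. The same 4, Neurog3, Insm1, Nkx2-2 and Isl1, were lower at an unadjusted p under 0.05, against 3.03% of all. With no filter on dim genes, all 8 members were lower, with a median of -0.25, and 5 of them did not overlap, against 6.14% of 22180 genes. At an unadjusted p under 0.05, 5 of the 8 were lower in that fit, against 3.2% of all genes. The Neurod1 value counted here is in doubt, as only 7 of 36 neighbours of its probe set lie on the strand of Neurod1. The probe set shared with Cerkl gave a difference of 0.02, higher in VDR-null duodenum. Isl1 was tested because of its wild-type arrays, so its place in these counts of tested members is no support for a difference. The 8 share 6 arrays and a lineage, so they are not independent of each other.

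Genes of similar brightness leaned the same way. In the band of mean levels that the tested members span, 5.21 to 6.54, 63.8% of 3758 genes were lower in VDR-null duodenum, the median difference was -0.05, and 9.1% had all VDR-null arrays below all wild-type arrays. In bulk tissue, fewer cells of a type and less RNA per cell cannot be told apart.

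**Figure D3:**
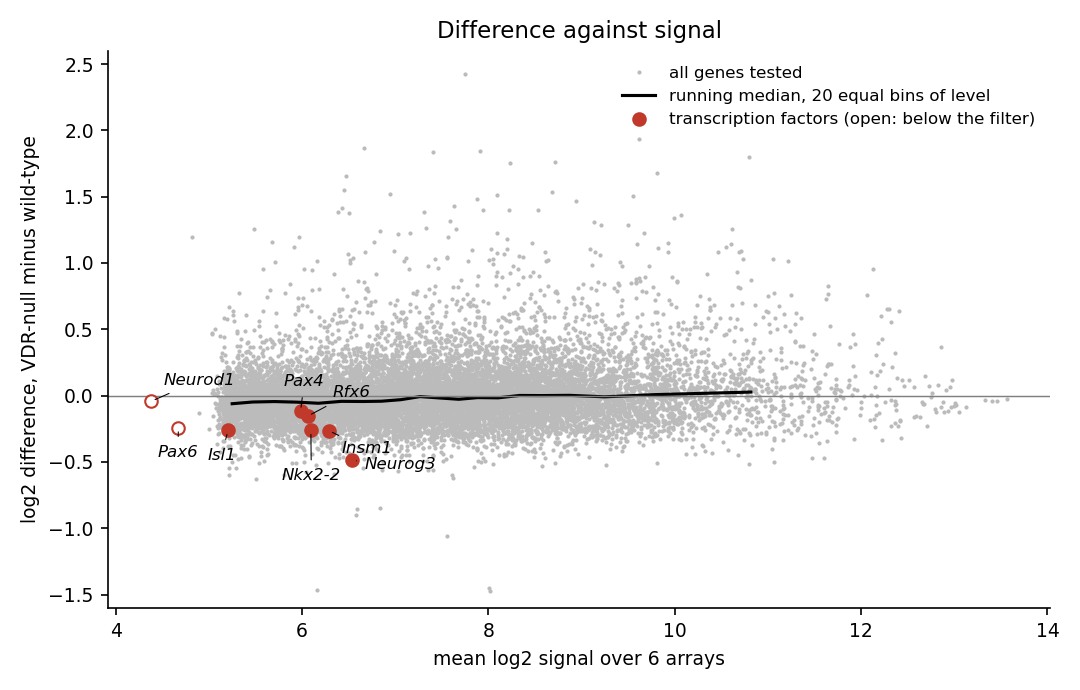
Difference in log2 signal, VDR-null minus wild-type, against the mean log2 signal over the 6 arrays for all 13174 genes tested (grey, with their running median as a line) and for the members (named; open circles for Neurod1 and Pax6, which were below the filter). The 6 tested members lie between 5.21 and 6.54 in level and between -0.49 and -0.12 in difference, among many genes of like level and difference.

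Array by array, the tested members, each centred on its own mean, averaged -0.19, -0.16 and -0.03 in VDR-null replicates 1 to 3, against 0.12, 0.04 and 0.23 in wild-type replicates 1 to 3. VDR-null replicate 3 was thus the nearest of its genotype to the wild-type mice, and wild-type replicate 2 the nearest to the VDR-null mice. Counting all 8 members, wild-type replicate 3 gave the highest value of 4 and wild-type replicate 2 of 3, while VDR-null replicate 2 gave the lowest of 3. Wild-type replicate 2 also gave the lowest value of 2 members, Pax4 and Neurod1. No array was therefore low or high for every member.

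Leaving out each array in turn kept the differences of Neurog3, Insm1, Nkx2-2, Isl1, Pax6 and Rfx6 below 0. Neurog3 then ranged from -0.58 to -0.32. Insm1 ranged from -0.29 to -0.22, Nkx2-2 from -0.30 to -0.23, Pax6 from -0.28 to -0.21 and Isl1 from -0.34 to -0.18. The count of tested members with an unadjusted p under 0.05 was lower in each case, at 1 without VDR-null replicate 2, 2 without wild-type replicate 2 or 3, and 3 without VDR-null replicate 1 or 3 or wild-type replicate 1.

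**Figure D4:**
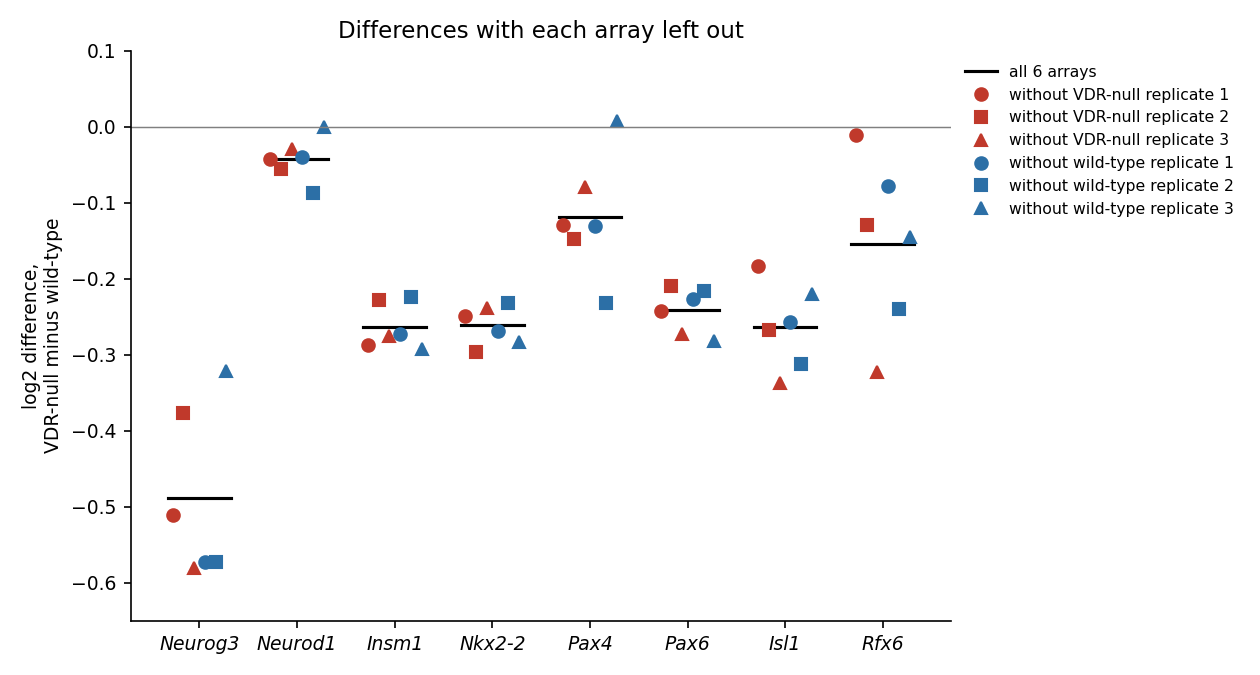
Log2 difference, VDR-null minus wild-type, of each member with each of the 6 arrays left out in turn (red, a VDR-null array left out; blue, a wild-type array left out) beside the value from all 6. Neurog3 spans -0.58 to -0.32, and Pax4 is the member that crosses 0, at 0.01 without wild-type replicate 3.

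Other transcription factors of gut and islet endocrine cells leaned the same way. Of 20 on the list, 18 had a probe set and 14 were tested; 11 were lower and 3 higher in VDR-null duodenum, with a median difference of -0.13, and 0 passed the adjusted threshold. At an unadjusted p under 0.05, 3 of the 14 were lower and 0 higher, against 3.03% lower and 2.2% higher of all genes tested. Of all genes tested 56.0% were lower, and 63.8% of those in the members' band of level. Runx1t1, a transcriptional corepressor found in endocrine progenitors, read 6.19, 6.29 and 6.31 in VDR-null replicates 1 to 3, against 6.60, 6.65 and 6.59 in wild-type replicates 1 to 3, with no overlap. It differed by -0.35 ± 0.08 (SE; limma unadjusted p = 0.00399, adjusted p = 0.683). Etv1, an ETS-family factor, read 6.42, 6.54 and 6.60 in VDR-null duodenum, against 6.96, 6.80 and 6.68 in wild-type, also without overlap, and differed by -0.29 ± 0.11 (SE; limma unadjusted p = 0.0277). Neurod2, a relative of Neurod1 and best known from neurons, overlapped between the genotypes and differed by -0.29 ± 0.12 (SE; limma unadjusted p = 0.0474).

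No gene on the list of Notch signalling and secretory lineage genes reached an unadjusted p under 0.05. Some of these genes act before Neurog3 and some beside or after it. At that p, 3.03% of all genes tested were lower and 2.2% higher. Of the 22 genes on the list, 21 were tested, and 14 were lower and 7 higher in VDR-null duodenum. Their median was -0.07, beside 56.0% lower among all genes tested. The 2 with the smallest p went in opposite directions. Maml1, a coactivator of Notch, read 6.84, 6.74 and 6.78 in VDR-null replicates 1 to 3, against 6.53, 6.67 and 6.57 in wild-type replicates 1 to 3, a difference of 0.20 ± 0.09 (SE; limma unadjusted p = 0.0544). Jag2, a Notch ligand, read 5.74, 5.80 and 5.86 in VDR-null duodenum, against 6.04, 5.97 and 5.95 in wild-type, a difference of -0.19 ± 0.08 (SE; limma unadjusted p = 0.0594).

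On the list of hormones and other products of the mature cells, no gene reached an unadjusted p under 0.05. At that p, 3.03% of all genes tested were lower and 2.2% higher. The list holds gut hormone, granin and prohormone-processing genes, with some other genes of enteroendocrine cells. Of its 27 genes, 26 had a probe set and 21 were tested. In VDR-null duodenum 12 were lower and 9 higher, with a median of -0.10, beside 56.0% lower among all genes tested. For a list of this size, both counts lie near the shares of all genes tested. Gast, which encodes gastrin, had the smallest p and read 5.65, 5.94 and 5.81 in VDR-null replicates 1 to 3, against 5.98, 5.97 and 6.08 in wild-type replicates 1 to 3, a difference of -0.21 ± 0.10 (SE; limma unadjusted p = 0.0778). Cck, which encodes cholecystokinin, read 9.01, 8.78 and 8.99 in VDR-null duodenum, against 8.69, 8.85 and 8.55 in wild-type, a difference of 0.23 ± 0.12 (SE; limma unadjusted p = 0.0894). Whether the regulators and the genes of this list differed in their shift was not tested.

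Genes of endocrine excitability and secretion were mixed. Of 22 on the list, 20 had a probe set and 16 were tested; 12 were lower and 4 higher in VDR-null duodenum, with a median of -0.08. At an unadjusted p under 0.05, 1 of the 16 was higher and 1 lower, near the 2.2% and 3.03% of all genes tested, of which 56.0% were lower. Slc18a1, the vesicular monoamine transporter of serotonin-storing enterochromaffin cells, was higher in every VDR-null mouse, at 7.29, 6.92 and 6.89 in VDR-null replicates 1 to 3, against 6.71, 6.63 and 6.65 in wild-type replicates 1 to 3. It differed by 0.37 ± 0.13 (SE; limma unadjusted p = 0.0215, adjusted p = 0.683). Cacna2d1, an auxiliary calcium channel subunit also found in muscle and neurons, read 6.50, 6.63 and 6.68 in VDR-null duodenum, against 7.07, 6.68 and 7.07 in wild-type, a difference of -0.34 ± 0.13 (SE; limma unadjusted p = 0.0364).

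**Figure D5:**
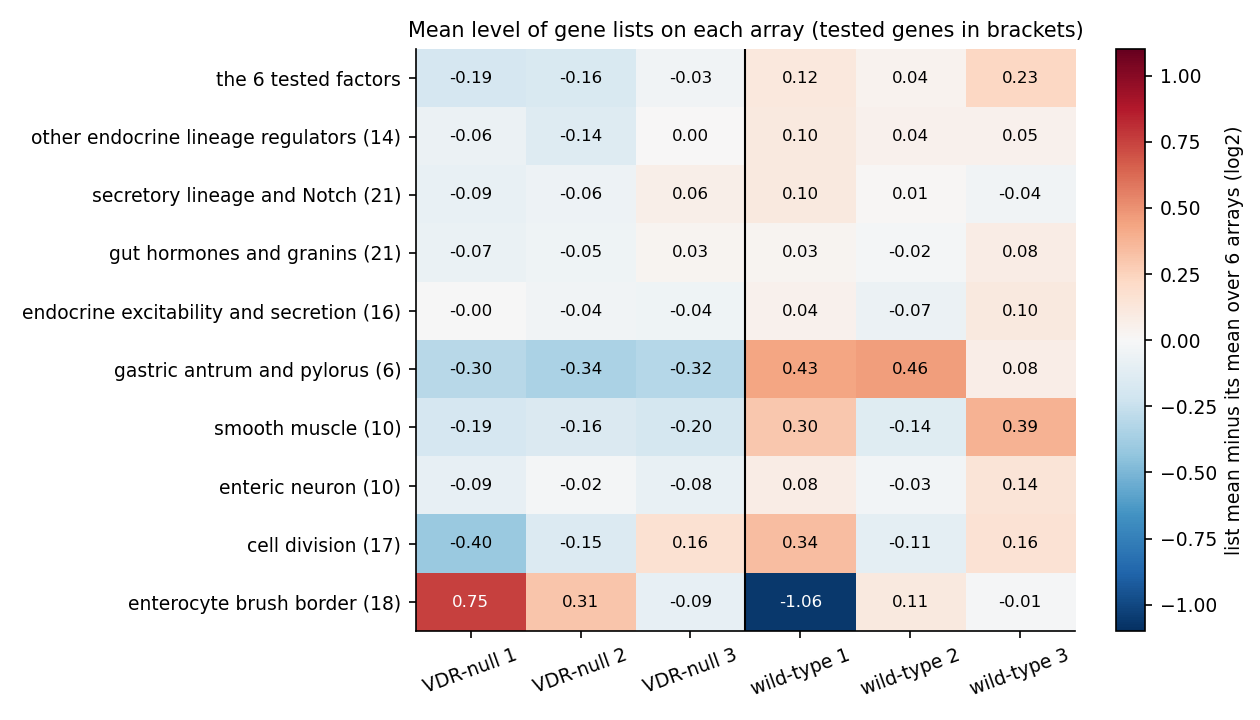
Mean log2 signal of the tested genes of each list on each array, each gene centred on its mean over the 6 arrays, as colour (red above 0, blue below 0), with the VDR-null arrays left and the wild-type arrays right. The 6 tested members, the other endocrine lineage regulators and the antral and smooth muscle lists lie lower on all 3 VDR-null arrays than on any wild-type array, and the brush border list is farthest apart on the arrays numbered 1, at 0.75 in VDR-null and -1.06 in wild-type duodenum.

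Markers of other tissues and cell types also differed between the mice. A list of 10 genes stands here for the antral stomach, which holds endocrine cells of its own. Whether the duodenum itself expresses these genes was not tested. Of the 10, 6 passed the filter, and all 6 were lower in VDR-null duodenum. For 3 of the 6 the VDR-null arrays lay below all wild-type arrays, against 6.22% of all genes tested. At an unadjusted p under 0.05 (limma) 2 of the 6 were lower, against 3.03% of all. The mean level of the 6 was between 6.03 and 6.07 on the VDR-null arrays, against 6.45 to 6.83 on the wild-type arrays, with no overlap. Gkn3, a gastrokine, read 6.93, 6.88 and 7.27 in VDR-null replicates 1 to 3, against 8.35, 7.93 and 7.98 in wild-type replicates 1 to 3. The difference was -1.06 ± 0.16 (SE, limma unadjusted p = 0.00029, adjusted p = 0.683), larger than that of any member. Muc5ac and Sox2 were dim on all 6 arrays, and Gkn1 and Gkn2 on all but wild-type replicate 1, where Gkn2 read 6.65. The part of antral tissue in the members' values was not tested. With the mean of the antral genes as a covariate, the members' median was -0.37, with Neurog3 at -1.31, Pax4 at -0.80, Isl1 at -0.51, Nkx2-2 at -0.16 and Insm1 at -0.09, and Pax6, in the fit with no filter, at -0.02. That covariate separates the genotypes by itself, so it and the genotype can hardly be told apart in the fit.

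Genes of the muscle wall and of the crypt were lower as well. All 10 smooth muscle genes were lower in VDR-null duodenum, with a mean level of 9.32 to 9.36 on the VDR-null arrays, against 9.38 to 9.90 on the wild-type arrays. For 5 of the 10 the VDR-null arrays lay below all wild-type arrays, against 6.22% of all genes tested. At an unadjusted p under 0.05 (limma) 6 of the 10 were lower, against 3.03% of all. Synpo2, an actin-binding protein of muscle, had the smallest p among them, with a difference of -0.42 ± 0.12 (SE; limma unadjusted p = 0.0123). With the smooth muscle mean as a covariate Insm1 was at -0.36, Nkx2-2 at -0.32, Neurog3 at -0.27 and Isl1 at -0.15, while Pax4 was at 0.17, Rfx6 at 0.01 and Neurod1, in the fit with no filter, at 0.07. All 17 tested cell division genes and all 12 tested crypt stem cell genes were lower, with medians of -0.26 and -0.33. Of all 13174 genes tested, 7375 were lower and 5799 higher. The mean of the cell division genes was 8.52, 8.77 and 9.08 in VDR-null replicates 1 to 3. In wild-type replicates 1 to 3 it was 9.26, 8.81 and 9.08. The arrays numbered 1 thus held both extremes, as they did for the crypt stem cell mean. With the cell division mean as a covariate Isl1 was at -0.15 and Rfx6 at 0.09. Lgr5, the crypt stem cell receptor, differed by -0.54 ± 0.19 (SE). All 18 tested brush border genes of enterocytes were higher, with a median of 0.57. Their mean level was 10.91, 10.47 and 10.07 in VDR-null replicates 1 to 3. In wild-type replicates 1 to 3 it was 9.10, 10.27 and 10.15. The genotypes overlapped, and the arrays numbered 1 were the farthest apart. The part of these shifts in the members' values was not tested.

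Markers of other tissues and cells that the samples could hold were read in the same way. The developing pancreatic islet uses the same factors, and the islet genes Ins2, G6pc2, Slc30a8 and Nkx6-1 were dim on all 6 arrays, Ins2 with a mean of 3.69 in VDR-null and 3.70 in wild-type duodenum. The 3 islet genes that were tested were all lower in VDR-null duodenum, with a median of -0.20. Their mean level was 5.60, 5.67 and 5.86 in VDR-null replicates 1 to 3, against 5.90, 5.89 and 6.07 in wild-type replicates 1 to 3, with no overlap, as for the members, and their part in the members' values was not tested. Among them Mafa had the smallest p, with a difference of -0.34 ± 0.13 (SE; limma unadjusted p = 0.0298). Pancreatic acinar genes had a mean level of 9.40 in VDR-null replicate 3, against 6.50 to 7.09 in the other VDR-null mice and 6.07 to 6.85 in the wild-type mice. Ctrb1, which encodes the zymogen chymotrypsinogen, read 8.57, 7.24 and 11.06 in VDR-null replicates 1 to 3, against 7.19, 6.19 and 6.22 in wild-type replicates 1 to 3. With VDR-null replicate 3 left out, the median of the tested members was -0.30. Of the 12 enteric neuron genes with a probe set, 10 were tested and all 10 were lower, with a median of -0.13, a mean level of 6.54 to 6.61 on the VDR-null arrays and 6.61 to 6.78 on the wild-type arrays, and Elavl4 and Chat too dim to be tested. The enteric glia genes overlapped, at 7.00 to 7.25 in VDR-null and 7.11 to 7.23 in wild-type duodenum, and Fabp7, a fatty acid binding protein, had the smallest p among them, with a difference of -0.46 ± 0.23 (SE; limma unadjusted p = 0.0882).

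Of the other epithelial lineages, Paneth cell genes were lower for 7 of 8 tested members with a median of -0.21, goblet cell genes were split at 5 higher and 5 lower with a median of -0.01, and tuft cell genes were 6 higher and 4 lower with a median of 0.06. None of these lists had a gene past the adjusted threshold.

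The genes whose pattern over the 6 arrays was most like the mean of the tested members were 2310039H08Rik with a Pearson r of 0.997, Vegfb with 0.996, Fam184b with 0.985, Eml1 with 0.984 and Snrpd2 with 0.984. They are the highest of 13168 correlations over 6 arrays that differ in genotype, and are given as a description. All 5 averaged lower in VDR-null duodenum, with differences from -0.43 for Vegfb to -0.16 for 2310039H08Rik. Vegfb encodes a vascular growth factor, Eml1 a microtubule-binding protein and Snrpd2 a core protein of the spliceosome.

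Of the 8 members 4 lie on chromosome 2, and Insm1 and Nkx2-2 are near each other there. The 4 protein-coding genes between them in RefSeq were all tested, and 2 were lower and 2 higher in VDR-null duodenum, with a median of -0.07 and 0 at an unadjusted p under 0.05. A probe set that the annotation gives to Nkx2-2 and its antisense transcript Nkx2-2os together (17377317) read 4.24, 4.21 and 4.40 in VDR-null replicates 1 to 3, against 4.25, 4.07 and 4.18 in wild-type replicates 1 to 3. Of its 37 neighbours in number, 1 belongs to a gene on the strand of Nkx2-2. It was dim and overlapped between the genotypes, with a difference of 0.12 ± 0.09 (SE; limma unadjusted p = 0.249).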

How the data were processed

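RNA of 6 duodena, 1 array per mouse, was compared between VDR-null and wild-type mice, grouped by the sample titles. The authors deposited log2 signals, 1 per probe set, which the submitters' processing notes trace to RMA (background correction, quantile normalization and probe summary) and Affymetrix Expression Console, without versions. The sources do not say whether the arrays were normalized as 1 set. Of 41345 probe sets, 23521 were paired with 1 symbol, 1814 with several and 16010 with none. A gene was read from its brightest single-symbol probe set, by the mean of the 6 arrays. It was tested where 3 or more arrays exceeded 5.17, the median of the table. Arrays of 1 genotype had a median standard deviation of 0.15, and the number of arrays limits the precision.

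A linear model of genotype alone was fitted in R 4.3.3 by limma 3.58.1 (lmFit, then eBayes), and two-sided p-values were adjusted by the Benjamini-Hochberg method over 13174 genes, against a threshold of 0.05. A negative difference means lower in VDR-null duodenum. The procedure was tested on simulated data with shifts larger than the difference of any member. That test does not cover differences as small as those of the members. Members and gene lists were chosen with earlier results of these data known, so lists are described by counts and medians, with no test. Named genes were the 8 members, Vdr, the members' other probe sets, of each endocrine or Notch list the tested genes with an unadjusted p under 0.05 (at least 2, at most 5, by smallest p), of the other lists the genes of highest level or lowest p, and the 5 genes most like the members' mean. Pdx1 and the dim islet, antral and neuronal genes are named outside that rule, as defining markers. Promoters are from RefSeq (GRCm38.p6). The alternatives were other filters, normalizations, priors, array weights, a replicate block, arrays left out, other choices of probe set, and means of marker lists as covariates. The smooth muscle and antral covariates were added after seeing the data.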

Additional observations from a re-analysis of the deposited data

How the results depend on the processing

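No gene passed the adjusted threshold under any of the 23 alternatives, and the smallest adjusted p of any member was 0.191. All tested members were lower in VDR-null duodenum under 18 of the 23, and 176 of 183 member differences were negative. Other filters, other priors, the replicate block and other choices of probe set cannot change a member's difference. Their share of these counts was therefore fixed in advance and adds no support. The number of all genes with an unadjusted p under 0.05, 689, was 1278 with no filter, 2718 with array weights, 372 without both arrays numbered 1, 1089 over all probe sets, and 423, 415, 132 and 345 with the brush border, cell division, smooth muscle or antral mean as a covariate; it was 284 to 1569 with single arrays left out. The number of tested members at that p, 4, was 2 without both arrays numbered 1, 2, 1 and 2 with the cell division, smooth muscle or antral mean, and 1 to 3 with single arrays left out. With the replicate block those counts were 338 genes and 2 members. Deviations of arrays of equal number from their genotype's mean correlated at -0.62, 0.19 and -0.26. These values differ in sign and are not independent, so they cannot settle whether equal numbers pair the mice. The numbers come from the sample titles, and the sample descriptions number the wild-type arrays differently, so equal numbers are taken as names only. The members' median was -0.37 with the antral mean and -0.30 to -0.22 with single arrays left out. Signs turned for Rfx6 without both arrays numbered 1 (0.0655) and with the brush border (0.0858), cell division (0.0945) or smooth muscle (0.0114) mean, for Neurod1 (0.0670) and Pax4 (0.166) with the smooth muscle mean, for Etv1 (0.0173) and Fabp7 (0.0440) with the antral mean, for Pax4 with single arrays left out (-0.23 to 0.00779), and for Vdr with cyclic loess (0.0107) or single arrays left out (-0.13 to 0.0659). Array weights put Neurog3 at -0.77. The cause of these shifts was not tested. Isl1 lies near the filter level and Neurod1 and Pax6 under it, so their signal limits what can be said of them.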
